A study of Danio rerio with 5 samples.

Results

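Extracellular matrix genes were measured in the upper digestive tract of adult zebrafish as 58 probe sets of 46 genes, out of 15502 probe sets on the array that are not controls. Members were every probe set with a single symbol naming a collagen chain, a laminin chain, a matrix metalloproteinase or its inhibitor, a lysyl oxidase, a thrombospondin, a CCN growth factor, or one of fibronectin, fibrillin, SPARC, lumican, decorin, periostin and tenascin. Another 5 probe sets of col17a1b, col2a1a, mmp13a and mmp9 were left out by name. No fibrillin, lumican or type IV collagen probe set was found under a single symbol. Each of 5 arrays held RNA pooled from 3 fish, the zCdx1b transgenic genotype on 3 arrays and wild type on 2. All fish were 3 months old and of the AB background. The transgenic fish descended from eggs injected with Tol2 transposase RNA and a Tol2 plasmid whose name reads zK5p-zCdx1b-EGFP, read here as a zebrafish keratin 5 promoter in front of zebrafish Cdx1b and EGFP. The labels give the genotype of the other fish as wild-type and name no injection control. The sources used here state neither the sex of the fish nor whether the transgenic pools came from 1 line. Keratin 5 is known as a keratin of basal cells in stratified epithelium.

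The extracellular matrix holds a tissue together outside its cells. Fibroblasts, bone and cartilage cells secrete fibrillar collagens, which are trimmed, packed into fibrils and cross-linked by lysyl oxidases, while epithelia, vessels and muscle fibres rest on basement membranes of laminins and sheet-forming collagens. Matrix metalloproteinases cut these proteins, their tissue inhibitors (TIMPs) restrain the cutting, and thrombospondins, SPARC and CCN proteins adjust how cells respond to the matrix. In the gut, these genes are best known from the connective tissue below the epithelium and from the muscle coat.

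The 5 arrays had equal means over all probe sets, and 62.4% to 72.0% of probe sets lay above a background bound, set on each array by the highest of 44 control readings (bacterial genes and tag sequences). That bound lay between 3.64 and 4.13 on the log2 scale of the deposited values. Over all probe sets the arrays of a group correlated at r = 0.912 to 0.983 across genes for the transgenic pools and at 0.941 for the wild-type pools, against 0.726 to 0.822 between groups. Markers of the labelled tissue differed between the groups. Of 10 intestinal absorptive markers, 6 were at or below the bound in both wild-type pools, and their summed linear level was 279 to 479 there against 46834 to 53452 in the transgenic pools. Transgenic pool 1 stood apart from the other transgenic pools in striated muscle markers, whose median lay 4.51 below the wild-type mean in that pool, 2.06 below it in pool 2 and 1.40 below it in pool 3. Results that rest on single pools are therefore given with and without them.

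Matrix genes were lower in the transgenic pools, and none passed the test in the other direction. A filter on low values kept 43 of the 58 probe sets, covering 37 genes. Of these, 13 probe sets of 12 genes fell, 0 rose and 30 did not pass, 30.2% called in all, by limma with Benjamini-Hochberg adjustment over all 10335 probe sets kept and a threshold of 0.05. The background for that count was 11.7% of all kept probe sets lower and 10.1% higher, 21.8% in all. By gene, 12 of 37 fell, against 11.3% of all 6479 genes. At an unadjusted p under 0.05, limma put 31 of the 43 lower and 2 higher, the latter being col12a1b and fn1b, singled out after their values were seen. The share of all kept probe sets under that unadjusted threshold was not counted, so neither count has a background. The fitted change was below 0 for 40 of the 43, where 58.1% of all kept probe sets lay below 0. A difference of 2-fold or more downward was fitted for 25 members, 58.1% of the 43, where 10.3% of all kept probe sets had one, and 11 of the 25 passed. The median log2 change was -1.15, beside -0.10 over all kept probe sets.

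In 37 of the 43 probe sets every transgenic pool lay below both wild-type pools, where 30.8% of all kept probe sets did so, and in 2 every transgenic pool lay above them, where 20.1% did. Tissue was profiled in bulk, so a smaller share of matrix-producing cells in the sample and less RNA per cell cannot be told apart. Marker levels of other tissues also differed between the groups, as given below, and their part was not tested. Of the 43 probe sets, 4 reached the filter on no transgenic array and entered through the wild-type pools alone, which makes a lower value there unavoidable. They were col11a2, col28a2a, mmp11b and loxa. The count of falling members moved with the pool left out, to 3 without transgenic pool 2 and 20 without transgenic pool 3. The share of all kept probe sets called lower moved too, from 11.7% to 3.3% and 8.2%.

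**Figure D1:**
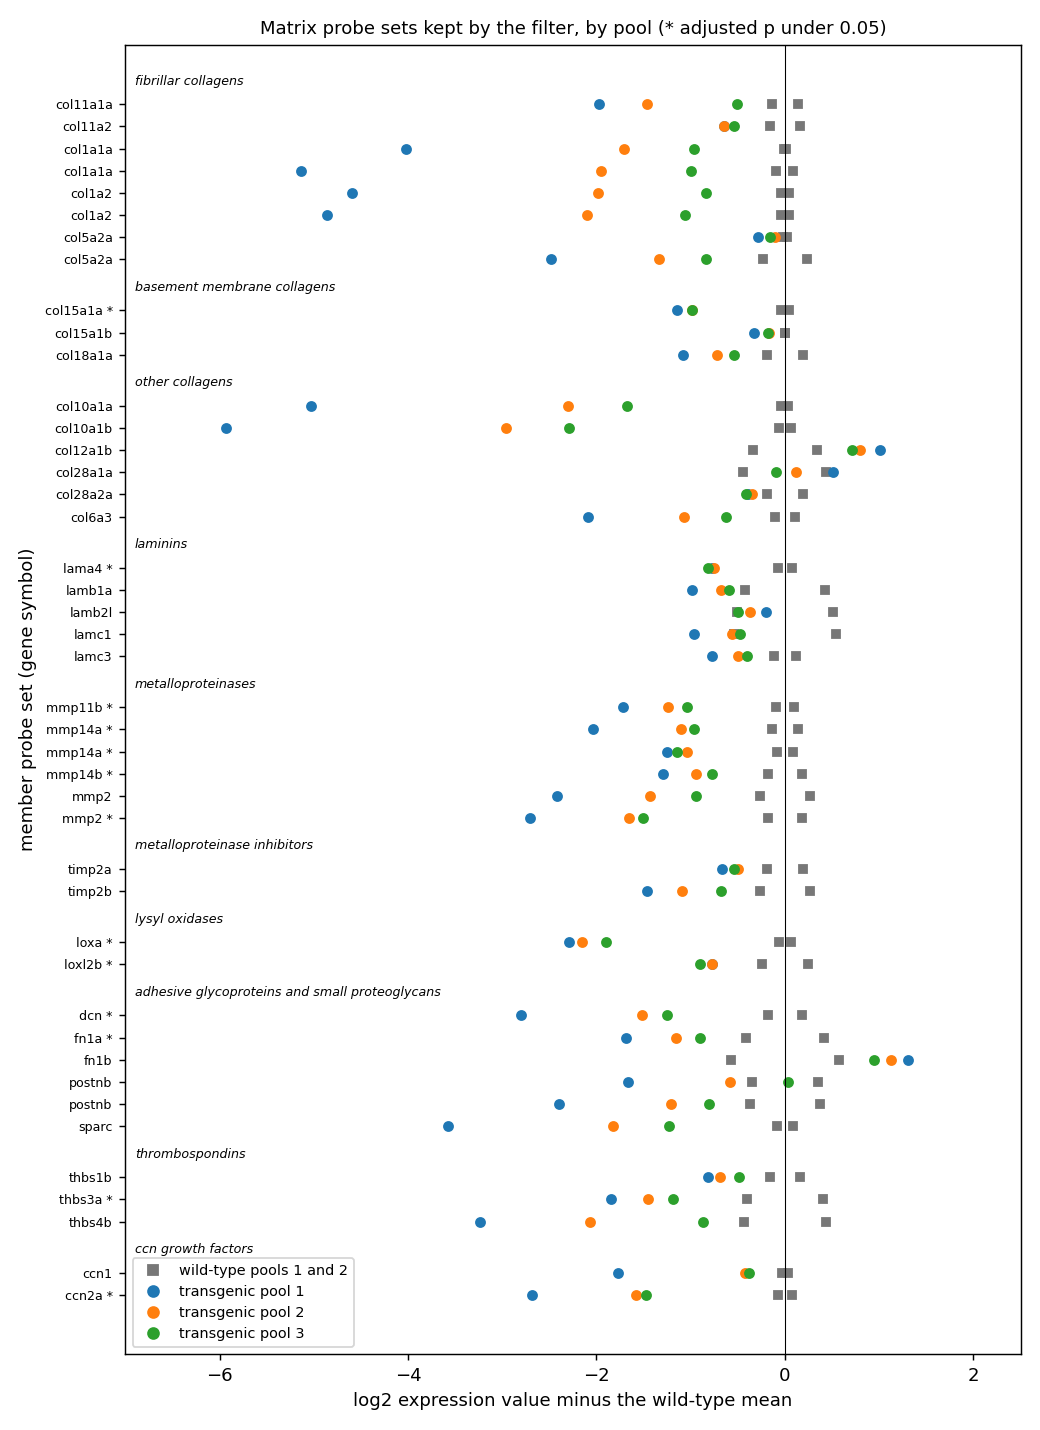
Log2 value minus the wild-type mean (x axis) for each of the 43 matrix probe sets kept by the filter, grouped by role, with grey squares for the 2 wild-type pools and coloured circles for the 3 transgenic pools; a star marks an adjusted p under 0.05. In 37 rows all 3 circles lie left of both squares, and col12a1b and fn1b are the rows with all 3 circles to the right.

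Type I collagen had some of the largest differences, yet neither of its measured chains passed the test, since the transgenic pools differed widely from each other. The gene col1a2, which encodes the alpha 2 chain of the main fibrillar collagen of skin, tendon and bone, read 10.95 and 11.03 in the wild-type pools on probe set Dr.5521.1.S1_at. It read 6.14, 8.90 and 9.93 in transgenic pools 1, 2 and 3. All transgenic pools lay below wild type, with pool 1 far below the other 2. Its log2 change was -2.67 (SE 1.04, limma adjusted p = 0.124). On Dr.1377.1.A1_at, col1a2 read 10.33 and 10.25 in wild-type and 5.70, 8.31 and 9.46 in transgenic pools, a change of -2.47 (SE 1.03, adjusted p = 0.146).

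The alpha 1 chain gene col1a1a had the same order of pools. Its probe set Dr.20097.1.S1_s_at read 11.38 and 11.40 in wild-type pools and 7.37, 9.68 and 10.43 in transgenic pools, and DrAffx.2.1.S1_s_at read 10.47 and 10.65 against 5.43, 8.61 and 9.57. Their changes were -2.23 and -2.69, with adjusted p-values of 0.116 and 0.156. Both carry the suffix that Affymetrix gives to probe sets shared by several transcripts. Without transgenic pool 1, all 4 type I probe sets passed, with adjusted p-values of 0.0182 and 0.0428 for col1a2 and 0.012 and 0.0236 for col1a1a. Without transgenic pool 3, the adjusted p was 0.042 and 0.0439 for col1a2 and 0.043 and 0.059 for col1a1a. Without transgenic pool 2, all 4 missed the threshold, at 0.139 to 0.190. Of all kept probe sets, 7.8%, 3.3% and 8.2% were lower without transgenic pools 1, 2 and 3.

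The fibrillar collagens that accompany types I and II were lower as well, without passing. Type V collagen starts and limits the width of type I fibrils, and its gene col5a2a read 8.52 and 8.05 in wild-type and 5.81, 6.96 and 7.45 in transgenic pools on Dr.741.1.S1_at, a change of -1.55 (SE 0.51, adjusted p = 0.0802). The other probe set of col5a2a, Dr.1254.1.A1_at, ranged only from 4.02 to 4.33 over the 5 arrays, near the background bound, and its change was -0.18 (95% interval -0.57 to 0.20). The probe sets of this gene therefore disagree in size. Type XI collagen belongs to thin fibrils, best known from cartilage. Its gene col11a1a read 5.39 and 5.66 against 3.55, 4.06 and 5.02, a change of -1.31 (adjusted p = 0.0775), which passed without transgenic pool 3, at 0.0122. The second type XI gene, col11a2, read 4.04 and 4.36 against 3.56, 3.55 and 3.67, with all 3 transgenic values at or below the bound. Its mean was at least 1.32-fold lower, with a log2 change of -0.61 (95% interval -1.03 to -0.19, adjusted p = 0.0515). It passed without wild-type pool 1, at 0.0315, and after quantile normalization, at 0.0399. Over the 8 fibrillar collagen probe sets, of 5 genes, the median change was -1.89 and 0 passed. Every transgenic pool lay below both wild-type pools in all 8, where 30.8% of all kept probe sets did so. Of the 8, col11a2 was kept through the wild-type pools alone, which fixed its direction.

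Type X collagen had the largest fitted changes of all members. In mammals this short-chain collagen marks hypertrophic cartilage, and in zebrafish its genes are also expressed in bone-forming cells. The gene col10a1b read 10.27 and 10.39 in wild-type pools and 4.40, 7.37 and 8.03 in transgenic pools 1, 2 and 3. Its means were 10.33 ± 0.08 (SD, n = 2) and 6.60 ± 1.93 (SD, n = 3), a 13.2-fold difference with a log2 change of -3.73 (SE 1.03), and at an adjusted p of 0.0501 it missed the threshold. The paralogue col10a1a read 11.35 and 11.27 against 6.28, 9.01 and 9.63, an 8.02-fold difference with a log2 change of -3.003 (SE 0.94, adjusted p = 0.0705). In both genes the wild-type pools lay close together, and transgenic pool 1 lay far below the other transgenic pools. Without transgenic pool 1 they passed at 0.00166 and 0.0019, and without transgenic pool 3 at 0.0261 and 0.0338. The gene col10a1b also passed after quantile normalization, with median centring and with the stricter filter, at 0.0412, 0.0466 and 0.0441.

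**Figure D2:**
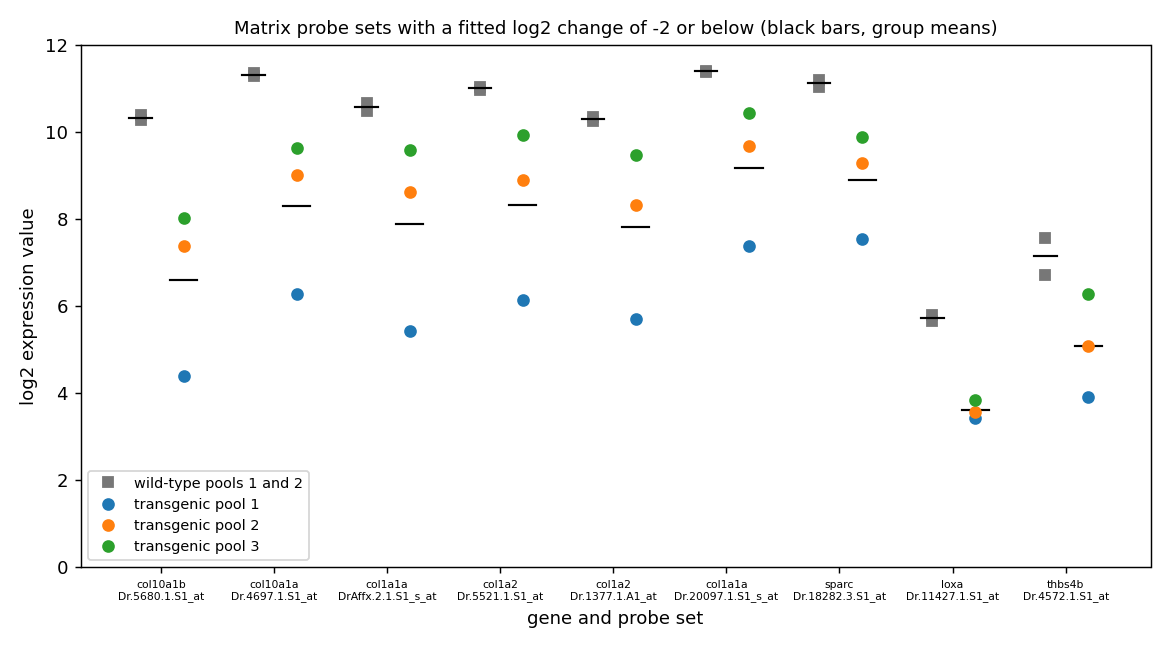
Log2 expression values (y axis, from 0) of the 9 matrix probe sets with a fitted log2 change of -2 or below (x axis, gene and probe set), with grey squares for wild-type pools, coloured circles for transgenic pools and black bars for group means. The 9 probe sets share the order of the transgenic pools, pool 1 lowest and pool 3 highest. The transgenic values of loxa alone lie close together, at 3.43 to 3.83, near the background bound.

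Among the remaining collagens, differences ran both ways and none passed. Type VI collagen forms beaded filaments around cells, and its gene col6a3 read 8.39 and 8.17 in wild-type and 6.19, 7.21 and 7.66 in transgenic pools, a change of -1.26 (adjusted p = 0.103). Type XII collagen sits on the surface of type I fibrils. Its gene col12a1b read 6.49 and 5.80 in wild-type pools and 7.16, 6.95 and 6.86 in transgenic pools. All transgenic pools lay above both wild-type pools, opposite to type I collagen in the same pools, with a change of 0.84 (SE 0.30, adjusted p = 0.0978). That gene passed without wild-type pool 1, at an adjusted p of 0.0348. The type XXVIII genes col28a1a and col28a2a had changes of 0.18 and -0.39, with adjusted p-values of 0.754 and 0.187, and values between 3.33 and 4.47 on all arrays. Without wild-type pool 1, col28a2a passed at 0.0486.

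Basement membrane collagens were represented by 3 probe sets of types XV and XVIII, and type IV was not among them. Their differences were smaller, and that of col15a1a passed. Types XV and XVIII are proteoglycan collagens of the basement membrane zone. The gene col15a1a read 5.14 and 5.23 in wild-type and 4.05, 4.203 and 4.204 in transgenic pools. The transgenic values had an SD of 0.09 and lay well below both wild-type values, a 2.05-fold fall (log2 change -1.04, SE 0.16, adjusted p = 0.00873). Leaving out transgenic pool 2 ended that call, at 0.0641. The paralogue col15a1b ranged from 4.07 to 4.41 on all arrays, with a change of -0.23 (95% interval -0.61 to 0.15). The gene col18a1a, the source of the fragment endostatin, read 6.55 and 6.17 against 5.28, 5.64 and 5.82, a change of -0.78 (adjusted p = 0.0911) that passed after quantile normalization, at 0.0328.

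Laminins were close to background, and 1 of 5 kept probe sets passed, where 11.7% of all kept probe sets were lower. Laminins are cross-shaped trimers of an alpha, a beta and a gamma chain. The gene lama4, an alpha chain known from vessel and muscle basement membranes, fell from 5.08 and 5.23 in wild-type pools to 4.38, 4.40 and 4.33 in transgenic pools on Dr.19760.1.A1_at (log2 change -0.78, SE 0.16, adjusted p = 0.021). The transgenic pools agreed within 0.03 in SD. The other lama4 probe set, Dr.19727.1.A1_at, did not reach the filter and lay at or below the background bound on all 5 arrays. The lama4 call was lost without transgenic pools 1, 2 and 3, at 0.0628, 0.141 and 0.0706.

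The wild-type pools lay far apart for lamb1a, lamc1 and lamb2l. The beta chain gene lamb1a read 5.57 and 4.71 in wild-type and 4.16, 4.47 and 4.55 in transgenic pools (change -0.75, adjusted p = 0.126). The gamma chain gene lamc1 read 5.17 and 4.09 against 3.66, 4.07 and 4.15, so its groups overlapped (change -0.67, adjusted p = 0.238). In both, wild-type pool 1 was the high array, and both passed without wild-type pool 2, at 0.0313 and 0.0392. The gamma chain gene lamc3, at 4.62 and 4.40 in wild type, had a change of -0.56 (adjusted p = 0.0876). The gene lamb2l overlapped between groups with a change of -0.36 (adjusted p = 0.493). It passed without wild-type pool 1, at 0.0433, and its sign turned without wild-type pool 2, to 0.15.

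Lysyl oxidases fell, and loxa had the smallest adjusted p of all members. These copper enzymes cross-link collagen and elastin outside the cell. The gene loxa read 5.79 and 5.66 in wild-type pools and 3.43, 3.57 and 3.83 in transgenic pools. All transgenic values lay below the wild-type pair by a wide margin, and 2 of the 3 lay at or below the background bound. Its transgenic mean lay near background, so the 4.34-fold difference of the values is no exact fold (log2 change -2.12, SE 0.19, adjusted p = 0.00114). It was kept through the wild-type pools alone, which fixed the direction, and with no filter its adjusted p was 0.00108. It stayed below the threshold whichever pool was removed, with an adjusted p of up to 0.0149. The related gene loxl2b read 4.95 and 5.44 against 4.42, 4.42 and 4.29 and fell by 0.81 (SE 0.21, adjusted p = 0.0381). It did not hold without wild-type pool 2, at 0.0578, without transgenic pools 1, 2 and 3, at 0.0774, 0.162 and 0.106, after quantile normalization, at 0.0778, with median centring, at 0.0524, and without a filter, at 0.0577.

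Matrix metalloproteinases were the role group with the most calls, 5 of 6 kept probe sets, where 11.7% of all kept probe sets were lower. The 6 probe sets cover 4 genes. The gene mmp2 encodes a gelatinase that is secreted as an inactive precursor. On Dr.2408.2.S1_at it read 8.41 and 8.05 in wild-type pools and 5.53, 6.57 and 6.73 in transgenic pools, a 3.88-fold fall (log2 change -1.95, SE 0.42, adjusted p = 0.0235). On Dr.2408.1.A1_at it read 8.27 and 7.74 against 5.59, 6.58 and 7.06, a change of -1.60 that did not pass, at 0.0612. Both probe sets put transgenic pool 1 lowest and every transgenic pool below wild type. The membrane-type metalloproteinase encoded by mmp14 genes is known to activate the MMP2 precursor. The gene mmp14a fell on both of its probe sets. Dr.4229.1.S1_at went from 5.49 and 5.32 to 4.15, 4.36 and 4.26 (log2 change -1.15, SE 0.17, adjusted p = 0.00763), and Dr.25553.1.A1_at from 6.60 and 6.34 to 4.43, 5.37 and 5.51 (-1.37, SE 0.37, adjusted p = 0.0463).

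The paralogue mmp14b fell 2.01-fold, from 7.02 and 6.65 to 5.54, 5.89 and 6.06 (log2 change -1.01, SE 0.27, adjusted p = 0.0478). The gene mmp11b, a stromelysin, fell from 5.14 and 4.96 to 3.33, 3.81 and 4.01 (log2 change -1.33, SE 0.24, adjusted p = 0.0133). It too was kept through the wild-type pools alone, and its value in transgenic pool 1 lay below the background bound. With no filter its adjusted p was 0.0147. Of these calls, that of mmp14a on Dr.4229.1.S1_at held with each pool left out in turn, at up to 0.0492. The call of mmp11b was lost without wild-type pool 1, at 0.0626, and that of mmp2 without wild-type pools 1 and 2 and transgenic pool 2, at 0.0986, 0.0614 and 0.0576. The second mmp14a probe set was lost without wild-type pools 1 and 2 and transgenic pools 1 and 2, at 0.152, 0.0982, 0.0608 and 0.101, and mmp14b without wild-type pool 1 and transgenic pools 1, 2 and 3, at 0.11, 0.13, 0.198 and 0.0775. Without a filter they were at 0.0581 and 0.0645, with a filter at the background bound at 0.0583 and 0.0592, and mmp14b was at 0.0602 with median centring.

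The inhibitors were lower by smaller amounts and did not pass. TIMP2 both inhibits metalloproteinases and takes part in the activation of MMP2 by MMP14. The gene timp2b read 6.18 and 5.65 in wild-type and 4.45, 4.82 and 5.23 in transgenic pools, a change of -1.08 (SE 0.30, adjusted p = 0.0523). The gene timp2a read 9.08 and 8.69 against 8.21, 8.38 and 8.34, a 1.48-fold difference with a change of -0.57 (95% interval -1.12 to -0.02, adjusted p = 0.131). Each gene was lower without overlap between the groups, as were 30.8% of all kept probe sets. Both genes passed after quantile normalization, at 0.0285 for timp2b and 0.0175 for timp2a. The gene timp2b also passed without transgenic pool 3, at 0.0415, and with the stricter filter, at 0.0441, and timp2a without wild-type pool 2, at 0.0412.

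Adhesive glycoproteins and small proteoglycans were mostly lower, with a fibronectin paralogue going the other way. Decorin binds type I collagen fibrils, and its gene dcn fell 3.62-fold, from 8.89 and 8.53 in wild-type pools to 5.91, 7.19 and 7.46 in transgenic pools (log2 change -1.85, SE 0.50, adjusted p = 0.0446). SPARC is a collagen-binding protein of bone and connective tissue. Its gene sparc read 11.19 and 11.03 in wild-type and 7.53, 9.28 and 9.88 in transgenic pools, a 4.63-fold difference that did not pass (log2 change -2.21, SE 0.65, adjusted p = 0.0605). Its pools were ordered as in type I collagen. Periostin gene postnb had a change of -1.47 on Dr.23788.5.S1_a_at (adjusted p = 0.0914) and of -0.74 on Dr.23788.3.S1_at (adjusted p = 0.397), where transgenic pool 3, at 7.35, lay between the wild-type values of 7.67 and 6.97.

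Fibronectin is a large adhesive protein that integrins assemble into fibrils, and its zebrafish paralogues differed in direction. The gene fn1a fell from 6.26 and 5.44 to 4.16, 4.69 and 4.94 on Dr.19965.1.S1_at (log2 change -1.25, SE 0.34, adjusted p = 0.0495). Its other probe sets, Dr.12367.1.A1_at and Dr.19965.2.S1_a_at, did not reach the filter, and their groups overlapped. The gene fn1b read 7.79 and 6.64 in wild-type pools and 8.52, 8.34 and 8.16 in transgenic pools, a 2.18-fold higher mean without passing (log2 change 1.12, SE 0.38, 95% interval 0.19 to 2.06, adjusted p = 0.0883). All transgenic pools lay above both wild-type pools, and the wild-type pair had an SD of 0.82. The difference between the paralogues' changes was not tested.

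Of the calls in this role group, dcn was lost without wild-type pools 1 and 2 and transgenic pool 2, at 0.157, 0.104 and 0.0867, and with a filter at the background bound, at 0.056. The call of fn1a was lost without wild-type pool 1 and transgenic pools 1, 2 and 3, at 0.162, 0.0888, 0.126 and 0.0514, and with median centring, without a filter, with a filter at the bound and without a trend, at 0.0543, 0.0631, 0.0618 and 0.0561. The gene sparc passed without transgenic pools 1 and 3, at 0.00593 and 0.0254, and after quantile normalization, at 0.0463. The gene fn1b passed without wild-type pool 1, at 0.0201.

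Thrombospondins and CCN growth factors were lower, with 1 call among 3 and 1 among 2 kept probe sets. Over all kept probe sets, 11.7% were lower. Thrombospondins are secreted calcium-binding glycoproteins. The gene thbs3a fell 2.81-fold, from 5.80 and 5.004 in wild-type pools to 3.56, 3.95 and 4.22 in transgenic pools (log2 change -1.49, SE 0.31, adjusted p = 0.0213). Transgenic pool 1 lay below the background bound, so that fold is not exact. The gene thbs4b, known in zebrafish for its role at muscle attachments to tendon, read 7.57 and 6.71 against 3.90, 5.07 and 6.27. Its transgenic SD was 1.19, transgenic pool 3 lay nearest to wild type, and it had a change of -2.06 (SE 0.69, adjusted p = 0.0851). The gene thbs1b, whose mammalian counterpart activates latent TGF-beta, read 5.48 and 5.17 against 4.51, 4.64 and 4.84, a change of -0.66 (adjusted p = 0.066).

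CCN proteins are secreted regulators of growth and adhesion, and ccn1 and ccn2 are known as targets of the Yap coactivator. The gene ccn2a fell 3.77-fold, from 7.97 and 8.12 in wild-type pools to 5.37, 6.46 and 6.57 in transgenic pools (log2 change -1.91, SE 0.42, adjusted p = 0.0246). The gene ccn1 read 5.95 and 6.02 against 4.22, 5.56 and 5.61 on Dr.15501.1.S1_at, a change of -0.86 (adjusted p = 0.245). In ccn1 transgenic pool 1 alone lay far from the wild-type values. The call of thbs3a was lost without wild-type pool 1 and transgenic pool 2, at 0.0755 and 0.0638, and that of ccn2a without wild-type pools 1 and 2 and transgenic pool 2, at 0.0831, 0.0844 and 0.0575. The gene thbs4b passed without transgenic pool 3, at 0.0208, and thbs1b without wild-type pool 2, at 0.0495, and after quantile normalization, at 0.0441.

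The members with the largest differences and those that passed were mostly different probe sets. Of 9 probe sets with a change of -2 or below, loxa alone passed, with 1 of its 3 transgenic values above the background bound. Its small spread was thus measured near the floor. Collagens accounted for 17 of the 43 kept probe sets and 1 of the 13 calls, with a median change of -1.26. The other 26 had a median change of -1.11 and 12 calls. Over all kept probe sets, 11.7% were lower. Among the calls outside the collagens, those of loxa and mmp11b were kept through the wild-type pools alone, which fixed their direction. The median SD over the 3 transgenic pools was 0.75 for the collagens and 0.34 for the others, and 0.35 for all 43 members, against 0.18 over all kept probe sets. Over the wild-type pools the median SD was 0.22 for the members and 0.32 over all kept probe sets. Called members had transgenic SDs from 0.03 to 0.83, and the 9 with the largest changes from 0.20 to 2.17. Without transgenic pool 1, 8 of those 9 passed, and without transgenic pool 3 also 8, against 1 without transgenic pool 2. Of all kept probe sets, 7.8%, 8.2% and 3.3% were lower without transgenic pools 1, 3 and 2.

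**Figure D3:**
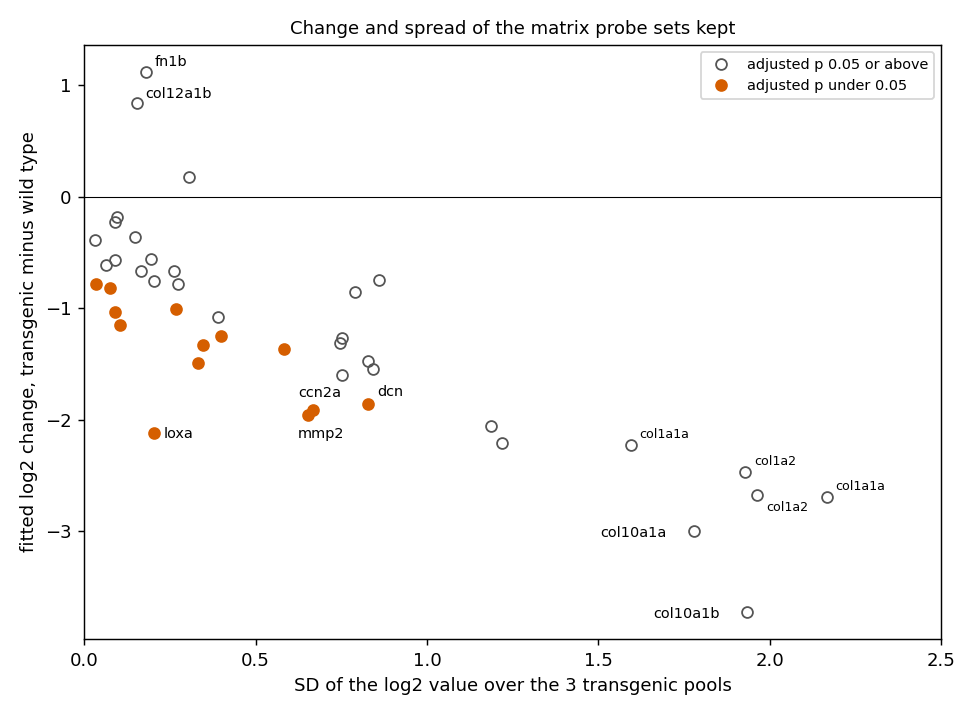
Fitted log2 change, transgenic minus wild type (y axis), against the SD of the log2 value over the 3 transgenic pools (x axis), 1 point per kept matrix probe set, filled where the adjusted p was under 0.05. Called probe sets have SDs of 0.83 or less, and the type I and type X collagens lie at SDs from 1.59 to 2.17.

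The order of the transgenic pools was shared across most members. Of the 37 probe sets with every transgenic pool below wild type, transgenic pool 1 was the lowest in 33 and transgenic pool 3 the highest in 30. Among all 3188 kept probe sets that were lower without overlap, the corresponding shares were 55.4% and 44.7%. Relative to the wild-type mean, the median of the 43 members lay at -1.69 in transgenic pool 1, at -1.07 in pool 2 and at -0.82 in pool 3. For the 9 probe sets with the largest changes, the values lay between -5.93 and -2.30 in pool 1, between -2.96 and -1.71 in pool 2 and between -2.30 and -0.83 in pool 3. The probe sets are not independent, since several share a gene and all share the same 5 pools.

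Genes that modify and assemble collagen gave 3 calls, all of them lower. Of 14 kept genes for collagen processing and assembly, 3 fell, 0 rose and 11 missed the threshold, beside 11.3% of all genes lower, and their median log2 change was -0.45. The genes that fell were crtap, part of the prolyl 3-hydroxylation complex, at -1.15 (adjusted p = 0.0188), plod1a, a lysyl hydroxylase, at -0.88 (0.0166), and pcolcea, an enhancer of procollagen cleavage, at -0.97 (0.0433). The export gene sec23a, the isomerase gene ppib and the lysyl hydroxylase gene plod3 had positive changes of 0.93, 0.31 and 0.37 without passing. The collagen chaperone gene serpinh1b read 7.46 in wild-type pool 1 and 3.91 in wild-type pool 2, with transgenic values of 3.80, 4.98 and 5.09 between or below them. None of the 3 calls held with each pool left out in turn. Without transgenic pool 2, crtap and plod1a were lost, at 0.0764 and 0.131, and pcolcea was lost without each transgenic pool in turn, at 0.102 to 0.175. The call of pcolcea was also lost with median centring, without a filter and with a filter at the background bound, at 0.0572, 0.0591 and 0.0539. Leaving out a pool also leaves fewer arrays for the test. Without transgenic pool 2, 3.3% of all kept probe sets were lower, against 11.7% with all pools.

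Receptors and other matrix genes gave 2 falls in each list, beside 11.3% of all genes lower and 11.2% higher. Of 11 kept basement membrane partners and matrix receptors, 2 fell and 0 rose, with a median of -0.38. The integrin gene itga6b, whose product binds laminin in hemidesmosomes, went from 6.90 and 6.25 in wild-type to 3.98, 4.50 and 4.83 in transgenic pools (log2 change -2.13, SE 0.33, adjusted p = 0.00857), a call that no single pool ended. The other, parvaa, which links integrins to actin, fell by 0.89, was kept through the wild-type pools alone (adjusted p = 0.0287 with no filter) and was lost without wild-type pool 1 and transgenic pools 2 and 3, at 0.0693, 0.0917 and 0.0624. The list of elastic fibre, proteoglycan and other matrix genes also holds efnb2a, a membrane-bound ephrin ligand. Of its 13 kept genes, 2 fell and 1 rose, with a median of -0.78. The versican gene vcanb fell by 0.84 (adjusted p = 0.0466), which did not hold without 4 of the 5 pools, at 0.0604 to 0.195. The other fall was that of efnb2a, whose mean was at least 1.35-fold lower (adjusted p = 0.031). It was also kept through the wild-type pools alone (0.0347 with no filter). That call was lost without transgenic pools 1, 2 and 3 in turn, at 0.0969, 0.141 and 0.106. The vitronectin gene vtnb, a plasma protein made in the liver, rose at least 6.56-fold (adjusted p = 0.000681) and was kept through the transgenic pools alone (0.000542 with no filter).

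Over all genes, 11.3% were lower and 11.2% higher. TGF-beta signalling and fibroblast factors had the most calls of the 5 lists, with 12 of 18 kept genes lower, 0 higher and a median of -1.06. That count was 8 without transgenic pool 1, 4 without transgenic pool 2 and 8 without transgenic pool 3. Of all kept probe sets, 7.8%, 3.3% and 8.2% were lower in those fits. Of the 12, tgfb1a, prrx1b, skib and smad7 reached the filter on no transgenic array, which fixed their direction, and with no filter these 4 had adjusted p-values of 0.00529, 0.0128, 0.0243 and 0.0309. The ligand gene tgfb1a read 5.03 and 4.799 in wild-type pools and 3.64, 3.68 and 3.74 in transgenic pools, all 3 at or below the bound. Its mean fell at least 2.16-fold (log2 change -1.23, SE 0.16, adjusted p = 0.0048). The intermediate filament gene vim fell by 2.11 (adjusted p = 0.00654), and no single pool ended either call. The coactivator gene yap1 fell by 1.55 (adjusted p = 0.0121) and the mesenchymal factor gene snai2 by 1.51 (0.0218). They were lost without transgenic pool 2, at 0.0692 and 0.07, and snai2 also without wild-type pool 1, at 0.0606. Of the other calls, mrtfab, smad7 and tgfbr2b were lost without each transgenic pool in turn, at 0.0508 to 0.165, at 0.0772 to 0.155 and at 0.0625 to 0.155. The call of skib was lost without transgenic pools 2 and 3, at 0.125 and 0.0706, and that of zeb2a without wild-type pool 1 and transgenic pools 1 and 2, at 0.112, 0.0741 and 0.117. Of 11 kept other matrix proteases, 1 fell, the ADAM protease gene adam9a by 0.95 (adjusted p = 0.0347), and was lost without 4 of the 5 pools, at 0.06 to 0.216. The 2 that rose were ctsl.1, a cathepsin, at least 187-fold, and plg, the liver-made plasminogen precursor, at least 26.7-fold, both kept through the transgenic pools alone. In the same pools 12 of 13 hepatocyte and 11 of 11 exocrine pancreas markers rose, with medians of 7.06 and 8.48 and sums of 1808 to 2057 and 197 to 226 in wild-type against 27805 to 35437 and 59565 to 67991 in transgenic pools. Of these rises, 10 hepatocyte and 5 exocrine markers reached the filter on no wild-type array, which fixed their direction.

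Most markers of several other tissues were lower along with the matrix members, and their part in the differences was not tested. Over all genes, 11.3% were lower and 11.2% higher. Of 23 kept striated muscle markers 7 fell, 0 rose and 16 did not pass. The summed linear level of the 23 was 31131 to 31767 in wild-type pools and 1604 to 14713 in transgenic pools. Against the rest, pvalb1, pvalb2 and acta1a had positive changes of 1.48, 2.12 and 0.50 without passing. Of 18 squamous epithelium markers 16 fell and 0 rose, with sums of 30074 to 30914 against 5556 to 10012, and their medians of -3.12, -1.88 and -1.69 followed the same order of transgenic pools 1, 2 and 3 as the members. All 5 kept genes of the fibroblast marker list fell, namely cxcl12a, prrx1a, prrx1b, s100a10b and vim. Their sums were 3477 to 5353 in wild-type against 426 to 1377 in transgenic pools. Of these 5 genes, all but cxcl12a are also counted in the TGF-beta and fibroblast list. Most of each sum came from s100a10b, at 11.84 and 11.13 in wild-type and 8.17, 9.46 and 9.94 in transgenic pools. Whether s100a10b marks fibroblasts in this tissue was not tested. The gene prrx1b was kept through the wild-type pools alone, which fixed its direction. The calls of prrx1a and prrx1b were lost without wild-type pool 1, at 0.0677, and without transgenic pool 2, at 0.0692, and that of s100a10b without wild-type pools 1 and 2, at 0.14 and 0.0703. Cartilage and bone markers outside the members had 1 fall among 5, sox9b, with sums of 627 to 873 against 98.1 to 408. Of 10 leukocyte markers 4 fell and 0 rose, with sums of 7106 to 9492 against 2438 to 3785. Those that fell were cd74a, cd74b, nccrp1 and spi1b, and most of each sum came from cd74a and cd74b. The markers arpc1b, ptprc, coro1a, lcp1, lyz and mpx did not pass, with adjusted p-values of 0.0694 to 0.933.

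Other marker lists did not move as one. Of 6 kept smooth muscle markers 4 rose and 0 fell, where 11.2% of all genes were higher. Those that rose were acta2, desmb, smtnb and tagln, whereas tpm1, at -2.44 (adjusted p = 0.0906), and mylka, at -0.63 (0.248), were lower without overlap and did not pass. Of the 4 that rose, desmb was kept through the transgenic pools alone, which fixed its direction. The list had a median of 1.82 and sums of 1752 to 2180 in wild-type against 2742 to 3136 in transgenic pools. None of the 3 kept endothelial markers, kdrl, fli1 and plvapb, passed, with a median of -0.16 and sums of 146 to 206 against 153 to 171. None of 8 gonad markers passed, with medians of -0.48, 1.03 and 2.37 in transgenic pools 1, 2 and 3, the same order of pools as in the members, and sums of 268 to 288 in wild-type against 135 to 1782 in transgenic pools. No kept marker of the striated muscle, squamous, fibroblast, cartilage, leukocyte or endothelial lists was at or below the background bound on all 5 arrays.

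**Figure D4:**
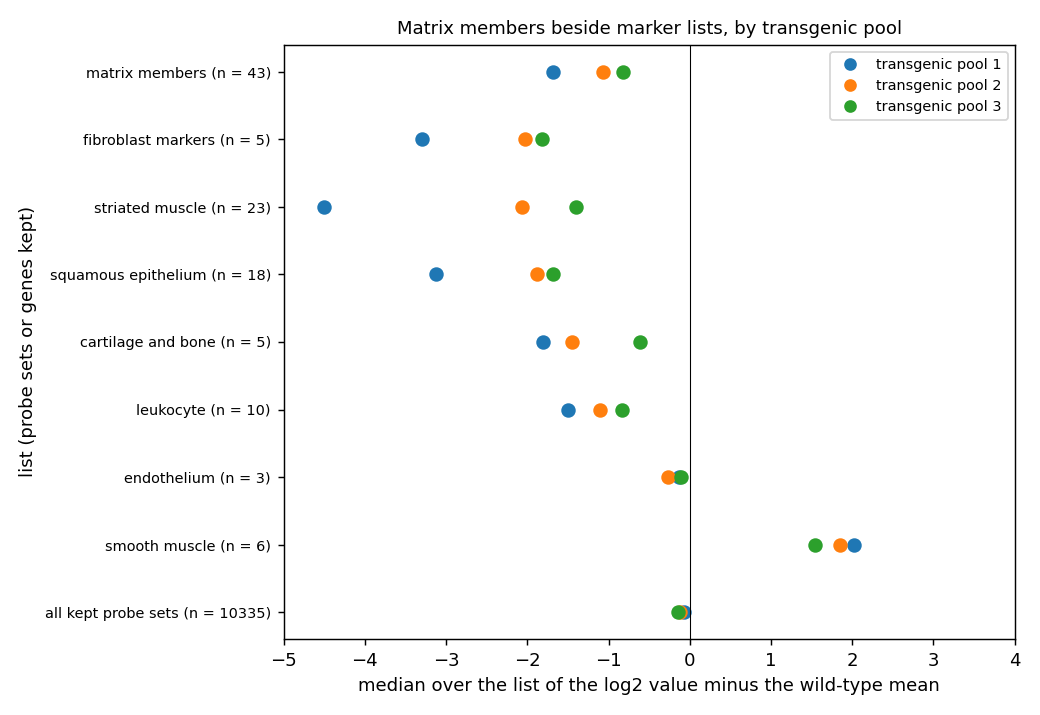
Median over each list of the log2 value minus the wild-type mean (x axis), with 1 circle per transgenic pool, for the matrix members, 7 marker lists and all kept probe sets (y axis, with the number of probe sets or genes). Matrix members lie at -1.69, -1.07 and -0.82, between all kept probe sets near -0.1 and striated muscle at -4.51, -2.06 and -1.40, and smooth muscle lies above 0.

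Removed by the filter were 15 member probe sets, with values between 2.82 and 4.36 on all arrays and differences of group means from -0.54 to 0.16. Of these, 10 lay at or below the background bound on every array. The 15 removed include every probe set of col8a1a, col9a1b, col9a2, col9a3, col14a1a, lama5, lamb4, mmp17b and tncb, 9 genes that were near background and not tested. The other removed probe sets belong to lama4, fn1a and ccn1, which had another probe set that was kept. Among all those removed, lama5, tncb on Dr.9638.1.S1_a_at and ccn1 on DrAffx.2.91.S1_at were lower without overlap. In the rest the groups overlapped.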

How the data were processed

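The authors deposited 1 log2 value for each probe set on each array. The submitters' processing notes name MAS5. They give neither version nor scaling nor log step. That the scale is log2 was read from the values, which ran from 2.23 to 13.58 with a mean of 4.89 on every array. If the base were not 2, folds would change but not directions or tests. Symbols were those of the platform annotation in GEO, updated through Entrez identifiers against RefSeq genes of GRCz12tu, which changed no member symbol. Of 15502 probe sets, 10795 had 1 symbol, 135 several and 4572 none. Coordinates were not used here.

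After 115 control probe sets were left out, a probe set was kept if 2 or more of the 5 arrays put it at or above their 40th percentile (10335). limma 3.58.1 in R 4.3.3 compared transgenic with wild-type pools (lmFit, eBayes with a trend, two-sided, Benjamini-Hochberg over all kept probe sets). The fit was tested on simulated data in which no probe set had an SD above the median of the kept probe sets. That test does not cover members with a wider spread. SDs are between pools, SEs and 95% intervals from the model, and the number of arrays limits precision. The labels call the pools biological replicates. A gene in a list was its probe set with the highest mean, and the 5 matrix and 11 marker lists leave out members. Where a group lay wholly at or below the background bound, chosen after the data were seen, the fold is a lower bound for the group means. It makes no allowance for the spread between pools.

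The members, lists and tests were chosen with earlier results of these data known. Values per array were given, by rule, for members past the threshold and for up to 4 of the largest changes in each role group. Among list genes and remaining members, names were chosen after their values were seen. Alternatives were quantile normalization, median centring, other filters, other variance models, the replicate number as a block, a threshold of 0.1, genes in place of probe sets, symbols as printed, and each array left out. Where an array was left out, the same probe sets were kept.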

Additional observations from a re-analysis of the deposited data

How the results depend on the processing

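The 40 members with a fitted change below 0 kept that sign after quantile normalization and median centring, and the members' median log2 change ran from -0.77 without a filter (58 probe sets) to -1.37 with the 60th percentile filter (33 probe sets). The count of members falling, 13, was 21 after quantile normalization, 24 with the replicate block and 26 at a threshold of 0.1. It ran from 3 to 20 with 1 transgenic pool left out. The shares of all kept probe sets lower were 15.1%, 9.0% and 17.6% in the first 3 of these settings, against 11.7% in the fit reported above. With 1 transgenic pool left out that share was 3.3% to 8.2%. The count rising, 0, was 2 at a threshold of 0.1 and 0 to 2 with 1 pool left out. Of the 13 calls, 12 remained after quantile normalization, 10 with median centring, 9 without a filter, 9 with a filter at the background bound, 12 without a trend, 13 with a robust trend and 3 without transgenic pool 2. Counting genes gave 12, and symbols as printed in the annotation gave 13.

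Over all probe sets, 1207 lower became 1821 at a threshold of 0.1 and 346 to 1700 with 1 pool left out, and 1043 higher became 685 with a filter at the background bound and 633 to 1221 with 1 pool left out. Over the 5 matrix lists, 20 lower genes became 31 at a threshold of 0.1 and 5 to 29 with 1 pool left out, and 3 higher genes became 0 with that filter, which removes genes at background in wild type, 5 at a threshold of 0.1 and 3 to 5 with 1 pool left out. With 1 pool left out, the change of col28a1a ran from -0.26 (without wild-type pool 1) to 0.62, and that of lamb2l from -0.86 to 0.15 (without wild-type pool 2). The cause of these moves was not tested.

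Same-numbered pools of the groups share only a number. Deviations from the group means correlated at -0.25 for pools 1 and -0.13 for pools 2, and with the block, transgenic pool 3 does not inform the comparison and 1 residual degree of freedom remains. Under the block 10 of the 13 calls remained and 14 members were added, among them all 4 type I collagen probe sets. With the block 9.0% of all kept probe sets were lower, against 11.7% without it. With 3 and 2 arrays, members near the background bound, such as the laminins, could be compared only coarsely.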
